A study of Mus musculus with 32 samples.

Results

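Egr1, Egr2, Egr3, Nr4a1, Nr4a2, Nr4a3, Ier2, Ier3, Klf4 and Klf6 are immediate early and early response genes, and their levels were followed in the mouse cochlea before and after a damaging noise. The 10 genes were taken by symbol from the 43947 genes listed in the series (39399 of them in both strains), and each was found once in all 32 libraries. The mice carried RiboTag, an HA-tagged ribosomal protein Rpl22 that a Cre recombinase switches on, so that an HA antibody pulls down the ribosome-bound RNA of the Cre-expressing cells. All animals were 10 weeks old, and the design text names CBA beside both strains. Noise was 105 dB SPL for 2 h, and the cochleae were taken 6 h or 24 h after it; controls had no noise. The groups were immunoprecipitates (IPs) of PrestinCre/+;RiboTagHA/+ mice, in which Cre follows the outer hair cell gene Slc26a5 (prestin), with 3 libraries 6 h after noise, 3 at 24 h and 3 controls; IPs of Sox2Cre/+;RiboTagHA/+ mice, in which Cre follows the supporting cell gene Sox2, with 2 libraries at 6 h, 3 at 24 h and 2 controls; and the whole-cochlea input of each of the 16 homogenates, in the same numbers. The Cre is an inducible CreERT2 in both strains, per the design text. Neither the sex of the animals nor the number pooled in a homogenate is given in the sources used here.

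These genes are transcribed within minutes of a stimulus without new protein synthesis, mainly through the serum response factor at CArG boxes and through CREB at cAMP response elements (CREs), and their short-lived mRNAs mostly fade within hours. Egr1, Egr2 and Egr3 encode zinc finger activators that bind GC-rich DNA, Nr4a1, Nr4a2 and Nr4a3 encode nuclear receptors that act without a known natural ligand, and Klf4 and Klf6 encode zinc finger factors of the Krüppel-like family. Ier2 encodes a small nuclear protein and Ier3 a small protein that modulates ERK signalling and cell death. Egr2, also called Krox20, is in addition a lasting regulator of myelination in Schwann cells.

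The promoters of 7 of the 10 genes were matched in RefSeq's table (GRCm38.p6), and 5 are shown because they differ in the CREs and CArG boxes named above. Each run below is the 250 bases before a transcription start, 5′ to 3′ on the gene's own strand, and capitals mark the CRE half-site TGACG on either strand (CGTCA when read on the other) and the CArG box. The windows are Nr4a1 at chr15:101266596-101266845 (+ strand), Nr4a2 at chr2:57124004-57124253 (− strand), Nr4a3 at chr4:48045055-48045304 (+ strand), Egr2 at chr10:67537619-67537868 (+ strand) and Ier3 at chr17:35821463-35821712 (+ strand).
Nr4a1: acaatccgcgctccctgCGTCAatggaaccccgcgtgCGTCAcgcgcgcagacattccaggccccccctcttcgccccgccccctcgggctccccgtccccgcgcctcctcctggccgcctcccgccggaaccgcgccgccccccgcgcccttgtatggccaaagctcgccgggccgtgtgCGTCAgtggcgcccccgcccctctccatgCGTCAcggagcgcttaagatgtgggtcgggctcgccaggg
Nr4a2: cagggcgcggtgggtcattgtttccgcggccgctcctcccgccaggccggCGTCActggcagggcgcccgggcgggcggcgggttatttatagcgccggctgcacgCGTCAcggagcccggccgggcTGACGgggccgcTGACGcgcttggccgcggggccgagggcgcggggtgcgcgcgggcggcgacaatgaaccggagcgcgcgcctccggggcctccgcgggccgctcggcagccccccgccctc
Nr4a3: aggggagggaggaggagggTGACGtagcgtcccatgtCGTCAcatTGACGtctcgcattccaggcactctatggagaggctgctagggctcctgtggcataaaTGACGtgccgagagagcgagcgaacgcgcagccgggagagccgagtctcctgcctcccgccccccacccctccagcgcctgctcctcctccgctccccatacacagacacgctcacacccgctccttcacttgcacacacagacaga
Egr2: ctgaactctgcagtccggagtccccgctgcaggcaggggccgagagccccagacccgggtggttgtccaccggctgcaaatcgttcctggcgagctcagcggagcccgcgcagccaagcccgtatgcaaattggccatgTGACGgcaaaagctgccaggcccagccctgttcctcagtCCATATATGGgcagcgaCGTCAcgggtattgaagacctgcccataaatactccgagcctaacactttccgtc
Ier3: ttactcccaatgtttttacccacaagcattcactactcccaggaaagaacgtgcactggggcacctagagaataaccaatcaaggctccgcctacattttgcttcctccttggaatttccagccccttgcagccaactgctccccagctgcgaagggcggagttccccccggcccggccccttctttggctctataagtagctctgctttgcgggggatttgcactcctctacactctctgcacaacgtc

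Each of the 3 Nr4a windows held 4 CRE half-sites. A half-site was present in 17.8% of the 32851 windows of this length in the table, and 4 or more in 0.137% of them. The Egr2 window held 2 half-sites and 1 CArG box. It was picked as holding the most of these letters among the gene's 5 windows, and is the first of 3 overlapping ones that hold the same letters. The Egr2 window at chr10:67537316-67537565 held a different CArG box and no half-site, and that at chr10:67535249-67535498 held neither. A CArG box was in 1.47% of all windows, which were not picked by their letters. The Ier3 and Klf6 windows held none of these letters, and the Klf4 window held 1 half-site. The Egr site GCGNGGGCG, searched on both strands, was found once in the Nr4a1 and Nr4a2 windows and at 2 places in the Klf4 window (4.7% of all windows hold it), while the Nr4a site AAAGGTCA was found in no member's window (1.34% of all). The full palindromic CRE TGACGTCA, which contains the half-site on both strands, was in none of them either (1.55% of all). Such matches describe letters only.

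On GRCm38, with the GENCODE annotation, the genes lie apart except that Nr4a3 and Klf4 share chromosome 4. Egr1 (ENSMUSG00000038418) is at chr18:34859823-34864984, Egr2 (ENSMUSG00000037868) at chr10:67535475-67542188, Egr3 (ENSMUSG00000033730) at chr14:70077203-70082614, Nr4a1 (ENSMUSG00000023034) at chr15:101254269-101274795 and Nr4a2 (ENSMUSG00000026826) at chr2:57106830-57124003. Nr4a3 (ENSMUSG00000028341) is at chr4:48045153-48086447, Ier2 (ENSMUSG00000053560) at chr8:84661331-84662852, Ier3 (ENSMUSG00000003541) at chr17:35821684-35822923, Klf4 (ENSMUSG00000003032) at chr4:55527143-55532466 and Klf6 (ENSMUSG00000000078) at chr13:5861482-5870394. All are protein-coding, Ier2 has a single exon, and no other annotated gene overlaps any of them. Values are TPM, transcript abundances scaled per length, so levels of different genes can be set side by side. The deposited TPM sum to the same total in each library, so sequencing depth is unknown and no counting interval is given. The Sox2 libraries at 6 h, IP and input, had the fewest genes above 0 TPM, 15929 to 16966 against 17395 to 21239 in all other libraries. The part of this in the Sox2 comparisons with 6 h was not tested.

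The labelled cell types were checked against their markers. The summed TPM of 8 outer hair cell markers ran from 508 to 2207 in Prestin IPs, against 80.4 to 111 in Prestin inputs and 122 to 161 in Sox2 IPs. The sum of 8 supporting cell markers ran from 3785 to 7674 TPM in Sox2 IPs, against 1920 to 2953 in Sox2 inputs, and that of 8 Schwann and satellite glia markers, from 2698 to 7958 TPM in Sox2 IPs, was also above the 790 to 1166 of the Sox2 inputs. Prestin IPs were not free of these markers. Their supporting cell sum was 2102 to 4141 TPM, against 1717 to 2717 in Prestin inputs, and their glial sum 1216 to 2190 TPM, against 644 to 1163. The sum of 7 endothelial markers was 55.8 to 90.4 TPM in Prestin IPs, against 26.1 to 30.0 TPM in Prestin inputs. Most genes were higher in IPs on the TPM scale: 68.5% of those tested were called higher in Prestin IPs over inputs and 55.2% in Sox2 IPs over inputs. In each Prestin IP but control replicate 1 the supporting cell sum was above the outer hair cell sum. One library stands apart: Prestin control IP replicate 1 held 65.4 TPM of Ier2, whereas the other 2 control Prestin IPs held 1010 and 1211. It was also the lowest of its group for Egr1, Egr3, Nr4a1, Nr4a3, Klf4 and Klf6, while Ier3 was alike in all 3 libraries. Its Malat1 was the highest of the Prestin IPs, 73023 TPM against 44030 and 48287 TPM in its group, and so was its outer hair cell marker sum, 2207 TPM against 814 and 1235 TPM. Fold changes of Prestin IPs over controls that it moves by over 1.5 times are given with and without it, apart from that of Egr2 at 6 h, which is near 0 both ways.

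In whole cochlea 6 h after noise, 8 of the 10 genes were higher, Egr2 and Egr3 being the other two. Fold changes throughout are differences in log2(TPM + 1), which understates the change of genes with low levels, tested with limma across all genes that passed a floor of 1 TPM and adjusted by Benjamini-Hochberg. Of the 14204 genes tested in inputs, 3.83% were called higher and 8.54% were called in either direction. The median of the 10 genes was 1.11, and that of all genes tested was -0.09. Scaling moved the background: 544 genes were called higher and 669 lower on TPM, against 796 higher and 429 lower with median-of-ratios scaling, with 8 members called higher under both. Because the inputs are bulk tissue, fewer cells of a type and less RNA per cell cannot be told apart.

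Egr1 reached 85.2, 89.7 and 91.7 TPM in Prestin inputs and 106 and 188 TPM in Sox2 inputs at 6 h, against 13.6, 11.1 and 15.1 TPM in Prestin control inputs and 29.0 and 33.3 TPM in Sox2 control inputs. Every input at 6 h was above every control input, also across strains. Such separation of groups is given as a description throughout, and its share over all genes was not counted. The log2 change was 2.46 ± 0.24 (SE; limma adjusted p = 2.33e-05, 5 libraries each). Egr2 did not pass the test: 18.4, 21.2, 23.2, 20.9 and 31.1 TPM at 6 h overlapped with 26.3, 13.4, 24.5, 15.3 and 7.90 TPM in controls, and the difference was 0.47 ± 0.26 (adjusted p = 0.289, limma). Egr3 was near the floor, at 1.21, 0.764, 2.06, 0.679 and 1.60 TPM at 6 h against 0, 0.682, 0.102, 3.02 and 1.35 TPM in controls. Its difference of 0.31 ± 0.29 (adjusted p = 0.535, limma) was -0.56 in the Sox2 inputs alone.

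The 3 Nr4a receptors were higher in the inputs. Nr4a1 stood at 31.6, 30.7 and 38.3 TPM in Prestin inputs and at 25.0 and 79.4 TPM in Sox2 inputs at 6 h, against 4.38, 5.73, 5.45, 5.98 and 6.32 TPM in the 5 control inputs. Its log2 change of 2.56 ± 0.25 (limma adjusted p = 2.33e-05) was exceeded by 0.120% of the genes tested. Nr4a2 had 6.24, 5.42, 4.23, 7.01 and 14.0 TPM at 6 h and 1.81, 2.08, 1.18, 2.03 and 1.71 TPM in controls, without overlap, a change of 1.51 ± 0.23 (limma adjusted p = 0.000902). Nr4a3 was the lowest of the family, at 1.61, 1.86, 1.57, 1.16 and 2.47 TPM at 6 h against 0.120, 0.296, 0.188, 0.381 and 0.347 TPM in controls. Its difference was 1.10 ± 0.15, but it passed the floor through the 5 libraries at 6 h alone, and a gene retained in that way had to differ. Fitted with no floor, where every gene with a value was kept, it differed by 1.10 ± 0.13 (limma adjusted p = 0.000271) and 8 members were again called.

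The Ier and Klf genes, which had higher baseline levels, rose as well. Ier3 had the largest change of these 4: 464, 437, 417, 372 and 788 TPM at 6 h, against 103, 107, 118, 94.1 and 91.9 TPM in controls, a change of 2.21 ± 0.18 (limma adjusted p = 6.03e-06). Ier2 had 130, 142, 106, 243 and 174 TPM at 6 h and 59.4, 66.7, 70.6, 113 and 92.3 TPM in controls. The 2 groups overlapped when strains were pooled, through Prestin input replicate 3 at 106 and Sox2 control replicate 1 at 113, but did not overlap within a strain, and the change fitted with strain as a term was 0.96 ± 0.12 (limma adjusted p = 0.000245). Klf4, a factor known from epithelial differentiation, had 137, 107, 136, 148 and 266 TPM at 6 h against 64.6, 64.3, 55.8, 80.3 and 86.2 TPM in controls, a change of 1.11 ± 0.15 (limma adjusted p = 0.000494). Klf6 rose by 0.93 ± 0.09 (limma adjusted p = 2.34e-05), from values of 88.1, 63.2, 87.4, 90.6 and 96.2 TPM at 6 h and 42.1, 45.0, 41.9, 49.3 and 40.1 TPM in controls. Every input of both genes at 6 h was above every control input.

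**Figure D1:**
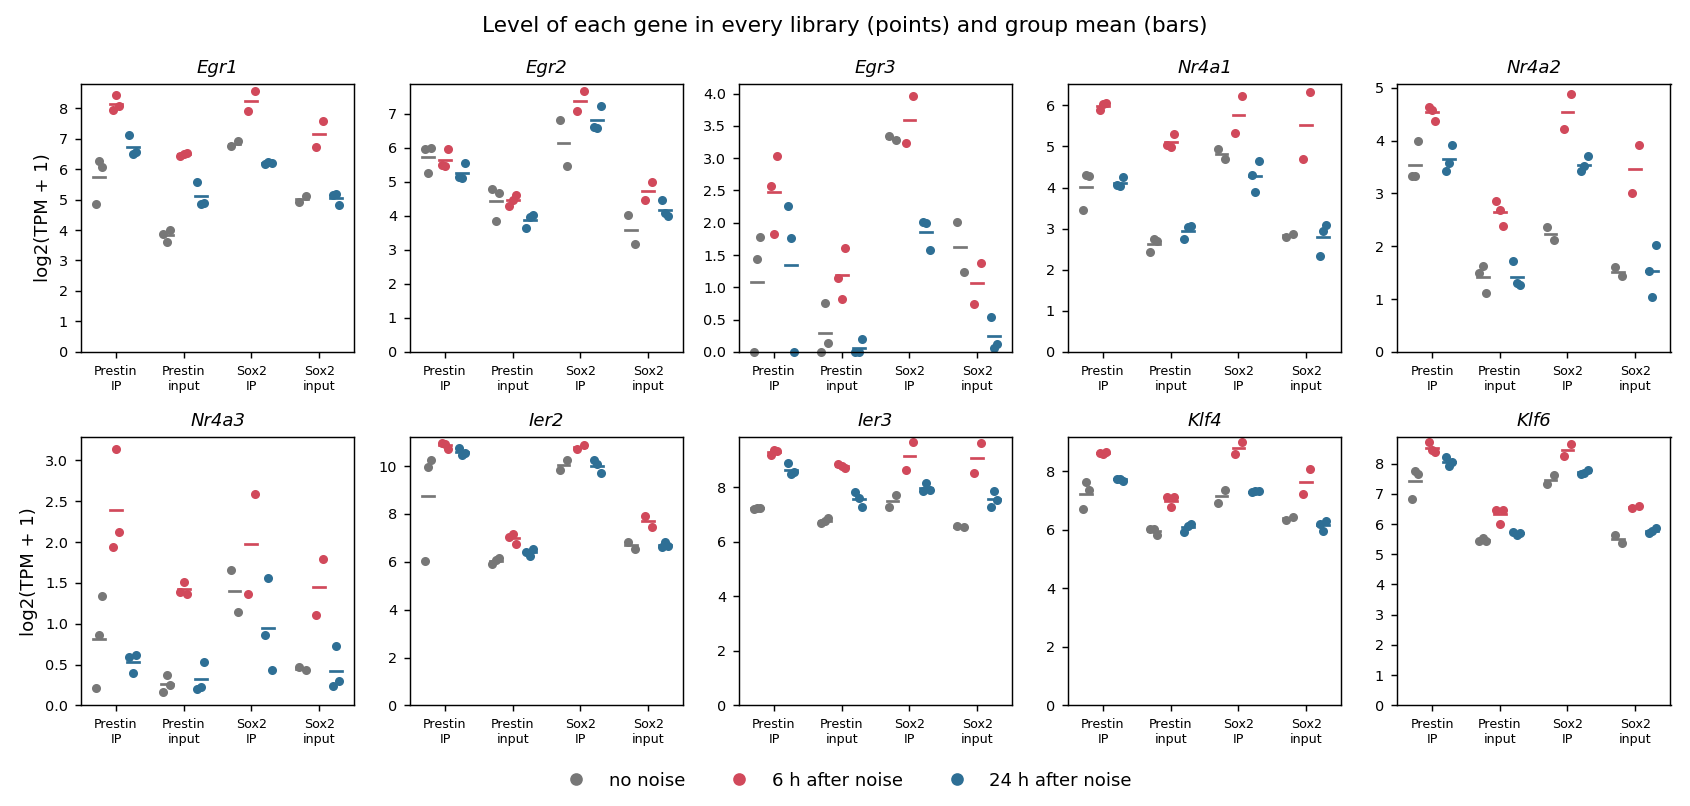
Each panel plots log2(TPM + 1) of 1 gene, with a point per library and a bar at the group mean, for Prestin IP, Prestin input, Sox2 IP and Sox2 input at no noise, 6 h and 24 h. The 6 h libraries lie above the controls in both strains' inputs for 8 genes, while Egr2 and Egr3 overlap. The share of all genes that separate in this way was not counted. The lone low grey point of Ier2 is Prestin control IP replicate 1 at 65.4 TPM.

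The same 8 genes were called when the Prestin inputs were fitted alone, with Egr1 at 2.67 and Nr4a1 at 2.48. In the Sox2 inputs alone, with 2 libraries at 6 h and 2 controls, 2 genes passed, Egr1 at 2.15 ± 0.29 (limma adjusted p = 0.0465) and Klf6 at 1.05 ± 0.13 (limma adjusted p = 0.0417). The other 6 had fold changes from 1.0 to 2.68 there, with limma adjusted p from 0.0527 for Ier3 to 0.193 for Nr4a3. The strains' input responses at 6 h did not differ for any member by the limma test of the difference (0 of 10 called and 2 with an unadjusted p under 0.05, Egr3 and Egr2; 1.02% of all genes called); without Sox2 input 6 h replicate 2, 1 member was called.

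In the Prestin IPs, enriched for outer hair cell RNA, 6 of the 10 genes were higher at 6 h, where 0.856% of the 16703 genes tested were called higher and 5.63% in either direction. The members' median was 1.49 and that of all genes -0.17, or 0.03 with median-of-ratios scaling, under which 137 genes were called higher and 170 lower, against 143 and 797 on TPM, and 5 members were called. Egr1 had 242, 344 and 265 TPM at 6 h against 27.8, 75.8 and 66.8 TPM in controls, a change of 2.41 ± 0.37 (limma adjusted p = 0.0208). Nr4a1 had 57.7, 64.4 and 66.1 TPM at 6 h against 9.93, 18.9 and 18.5 TPM in controls, a change of 1.97 ± 0.24 (limma adjusted p = 0.0103). For both genes each 6 h library lay above each control. The share of all genes that separate so in Prestin IPs was not counted.

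Ier3 had the smallest standard error of the 10, with 583, 664 and 642 TPM in Prestin IPs at 6 h and 148, 149 and 151 TPM in controls. Its change was 2.07 ± 0.14 (limma adjusted p = 0.00155). Klf4 had 395, 380 and 405 TPM at 6 h against 103, 196 and 162 TPM in controls, a change of 1.40 ± 0.22 (limma adjusted p = 0.0215). Klf6, at 415, 344 and 331 TPM against 111, 216 and 199 TPM, and Nr4a2, at 23.9, 22.9 and 19.8 TPM against 9.01, 8.99 and 14.8 TPM, also had no overlap between the groups. The change was 1.10 ± 0.25 for Klf6 and 0.99 ± 0.23 for Nr4a2, with p-values just under the threshold (limma adjusted p = 0.0475 and 0.0472).

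Of the 4 genes not called in Prestin IPs, 3 had large but uneven differences. Nr4a3, at 2.82, 7.78 and 3.35 TPM at 6 h against 0.164, 0.817 and 1.53 TPM in controls, differed by 1.59 ± 0.40 (limma adjusted p = 0.0571). Egr3, at 4.96, 2.54 and 7.15 TPM against 0, 1.73 and 2.44 TPM, differed by 1.40 ± 0.69 (limma adjusted p = 0.239), and by 0.86 ± 0.68 (adjusted p = 0.516) without control replicate 1. Ier2 had 1981, 1963 and 1698 TPM at 6 h against 65.4, 1010 and 1211 TPM in controls, a difference of 2.11 ± 0.97 (limma adjusted p = 0.211) that was 0.76 ± 0.15 (adjusted p = 0.0569) without control replicate 1. Egr2 did not pass, at 43.8, 42.5 and 60.8 TPM against 60.8, 37.3 and 62.7 TPM, a difference of -0.11 ± 0.25 (limma adjusted p = 0.809) that was 0.12 with median-of-ratios scaling.

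The count in Prestin IPs depended on single libraries. It was 2 without any one of the 3 libraries at 6 h and 5 without any one of the 3 controls, replicate 1 included, and Ier3 and Nr4a1 were the genes that passed in all 11 alternatives tried. Composition moved with noise in these IPs: Malat1 was 15602 to 21421 TPM at 6 h against 44030 to 73023 TPM in controls, mitochondrial genes took 10.6% to 13.7% against 4.91% to 8.40% of the TPM, and the outer hair cell marker sum was 508 to 824 TPM against 814 to 2207 TPM. The endothelial marker sum was 55.8 to 75.2 TPM at 6 h against 89.7 to 90.4 TPM in controls. Rescaling without mitochondrial genes and Malat1 left 6 members called, and the part of the marker shifts in the result was not tested.

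In the Sox2 IPs, enriched for supporting cell and glial RNA, 2 genes were called higher at 6 h, Nr4a2 and Klf4, where 0.216% of 17577 genes were called higher and 0.694% in either direction. Mitochondrial genes took 7.21% to 8.83% of the TPM in these IPs at 6 h against 3.07% to 4.35% in controls, and the sum of 8 macrophage markers was 159 to 184 TPM against 81.9 to 136 TPM, with none of the 8 at 0. Both members were still called after rescaling without mitochondrial genes and Malat1; the part of the macrophage markers was not tested. Nr4a2 had 17.5 and 28.5 TPM at 6 h against 4.14 and 3.33 TPM in controls, a change of 2.31 ± 0.29 (limma adjusted p = 0.0436). Klf4 had 379 and 509 TPM at 6 h against 120 and 163 TPM in controls, a change of 1.64 ± 0.21 (limma adjusted p = 0.0458). The 10 genes had a median of 1.10, against -0.07 for all genes.

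The remaining genes of the Sox2 IPs varied with the library at 6 h. Egr1 stood at 238 and 376 TPM against 106 and 119 TPM in controls (1.40 ± 0.23, limma adjusted p = 0.071), and Ier3 at 401 and 820 TPM against 153 and 212 TPM (1.67 ± 0.36, limma adjusted p = 0.103). Klf6 had 301 and 396 TPM against 160 and 194 TPM (0.97 ± 0.19, limma adjusted p = 0.0949), and Ier2 1675 and 1886 TPM against 912 and 1214 TPM (0.76 ± 0.25, limma adjusted p = 0.198). In these 4 genes both 6 h libraries lay above both controls, and replicate 4 was above replicate 2 in each. With 2 libraries against 2 such a separation is weak evidence, and its share over all genes was not counted. Nr4a1, at 39.0 and 73.4 TPM against 29.5 and 25.0 TPM, differed by 0.95 ± 0.38 (limma adjusted p = 0.263), and Egr2, at 134 and 200 TPM against 112 and 42.7 TPM, by 1.23 ± 0.50 (limma adjusted p = 0.270). Nr4a3 had 1.58 and 5.01 TPM against 2.16 and 1.20 TPM, and Egr3 had 8.42 and 14.5 TPM against 9.14 and 8.75 TPM; their differences of 0.58 ± 0.59 and 0.28 ± 0.34 were below 0 without 6 h replicate 4. No member was called without 6 h replicate 4 or without control replicate 1, and Klf4 alone was called without control replicate 4.

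**Figure D2:**
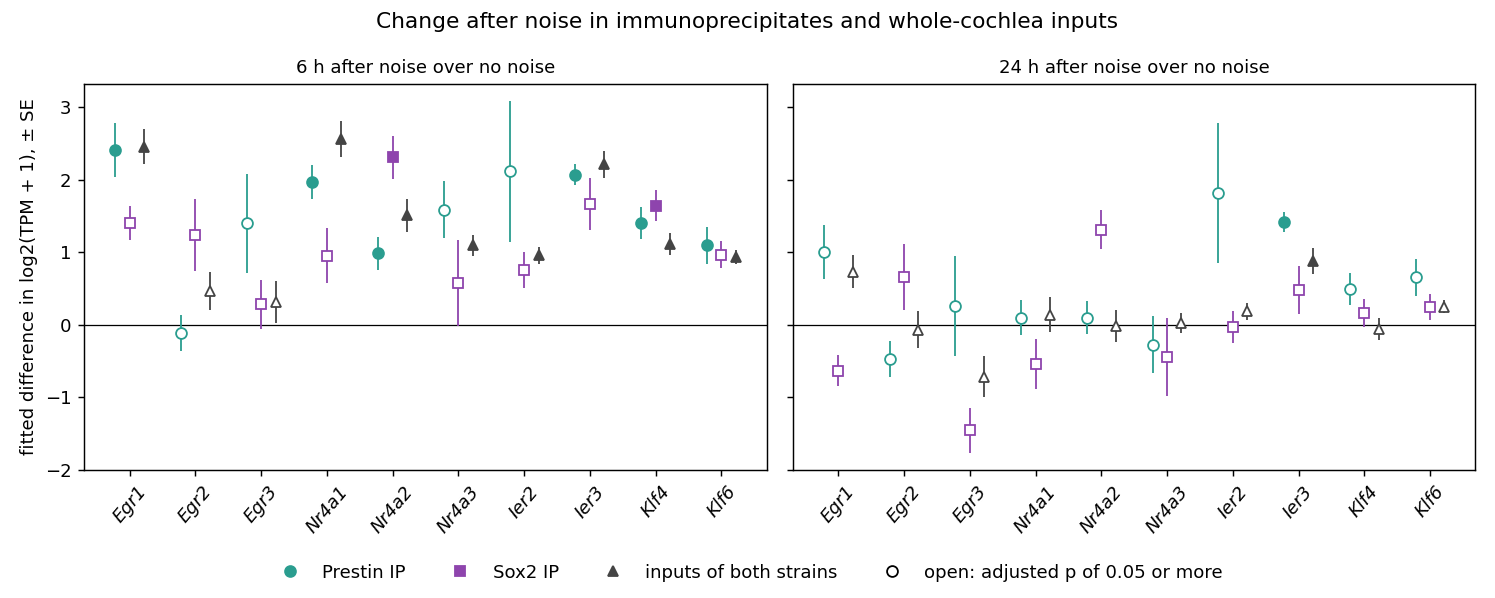
Points are fitted differences in log2(TPM + 1) with their standard errors for 6 h (left) and 24 h (right) after noise over no noise; circles are Prestin IPs, squares Sox2 IPs and triangles the inputs of both strains, and open symbols did not pass the adjusted threshold. At 6 h 8 input values are filled, and at 24 h the filled symbols are Ier3 in Prestin IPs at 1.42 and in inputs at 0.88.

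At 24 h 1 of the 10 genes was still called higher in inputs, Ier3, where 3.78% of genes were called higher and 4.44% in either direction. Ier3 stood at 229, 194, 153, 156, 235 and 183 TPM, all above the 5 controls, a change of 0.88 ± 0.18 (limma adjusted p = 0.00848, 6 libraries against 5). Cell type markers moved as well: the macrophage marker sum was 245 to 288 TPM in inputs at 24 h against 136 to 186 TPM in controls, and that of 6 fibrocyte and osteoblast markers was 5861 to 9084 TPM against 10223 to 11701 TPM. The supporting cell sum was 2567 to 2953 TPM in inputs at 24 h against 1997 to 2286 TPM in controls, and the erythroid sum 1054 to 1782 TPM against 1819 to 4153 TPM. None of these markers was at 0 throughout a control or 24 h input group, and their part in the Ier3 result was not tested. The difference for Egr1 was 0.73 ± 0.23 (limma adjusted p = 0.0967). Its levels were uneven between strains: Prestin inputs had 46.9, 27.6 and 28.6 TPM, above all 3 of their controls, and Sox2 inputs had 34.9, 35.6 and 27.3 TPM, around their 2 controls of 29.0 and 33.3. Egr1 was called in Prestin inputs alone, at 1.28 ± 0.20 (limma adjusted p = 0.0136), and stood at 0.056 ± 0.27 in Sox2 inputs alone (limma adjusted p = 0.9997). The limma test of that strain difference gave 1.22 ± 0.34 (adjusted p = 0.352; 0.00623% of genes called). Egr3 was 0 to 0.454 TPM in the 6 inputs, with a difference of -0.72 ± 0.28 (limma adjusted p = 0.213).

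Ier3 was also the gene called at 24 h in Prestin IPs, at 474, 362 and 374 TPM against 148, 149 and 151 TPM in controls, a change of 1.42 ± 0.14 (limma adjusted p = 0.00845; 1.1% of genes called higher, 6.23% in either direction). The call held in all 11 alternatives, among them median-of-ratios scaling, which gave 233 genes higher and 340 lower where TPM gave 183 and 858. The macrophage marker sum was 172 to 214 TPM in these IPs at 24 h against 78.1 to 128 TPM in controls, and that of supporting cells 3910 to 4141 TPM against 2102 to 3019 TPM. The neuron sum was 791 to 1144 TPM against 1301 to 2186 TPM, and the endothelial sum 67.4 to 75.4 TPM against 89.7 to 90.4 TPM. Their part in the Ier3 result was not tested. Egr1, at 139, 89.7 and 93.8 TPM, lay above its 3 controls but differed by 1.0 ± 0.37 (limma adjusted p = 0.142), and Klf6, at 294, 242 and 264 TPM, likewise by 0.65 ± 0.25 (limma adjusted p = 0.152). Without control replicate 1 these differences were 0.56 ± 0.23 for Egr1 (limma adjusted p = 0.218) and 0.36 ± 0.14 for Klf6 (limma adjusted p = 0.198). Ier2, at 1722, 1391 and 1477 TPM, differed by 1.81 ± 0.97 (limma adjusted p = 0.271), and by 0.46 ± 0.15 (adjusted p = 0.142) without control replicate 1. The 6 h and 24 h comparisons share their control libraries. The excess of the Ier3 response in Prestin IPs over Prestin inputs at 24 h was 0.63 ± 0.19 (limma adjusted p = 0.111; 1.04% of genes called).

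No member was called at 24 h in Sox2 IPs by limma (3 with an unadjusted p under 0.05; 0.188% of genes called). These were Nr4a2, with 9.73, 10.4 and 12 TPM above controls of 4.14 and 3.33 TPM (1.31 ± 0.27, limma adjusted p = 0.187), Egr3, with 3.02, 2.99 and 1.99 TPM below controls of 9.14 and 8.75 TPM (-1.45 ± 0.31, limma adjusted p = 0.200), and Egr1, with 70.3, 74.5 and 72.1 TPM below controls of 106 and 119 TPM (-0.63 ± 0.21, limma adjusted p = 0.364). The groups did not overlap in any of the 3, but with so few libraries this is weak evidence, and its share over all genes was not counted. Marker sums moved in these IPs at 24 h as well. That of supporting cells was 5801 to 7674 TPM against 3785 to 5217 TPM in controls, and that of neurons 1275 to 1756 TPM against 992 to 1163 TPM. Their part in these values was not tested. Within the Nr4a family, Nr4a2 made up 11.3% to 11.6% of the summed TPM in control Sox2 IPs, 26.7% to 30.2% at 6 h and 33.1% to 39.9% at 24 h. In Prestin IPs its share was 31.3% to 47.2% in controls, 22.2% to 28.3% at 6 h and 37.6% to 43.2% at 24 h.

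The difference between the IP responses of the 2 strains was tested directly. For Nr4a2, the Prestin IP response minus the Sox2 IP response was -1.32 ± 0.36 at 6 h (limma adjusted p = 0.126; 0.516% of genes called) and -1.21 ± 0.35 at 24 h (limma adjusted p = 0.141; 0.168% of genes called). For Egr1 at 24 h it was 1.63 ± 0.49 (limma adjusted p = 0.153). For Nr4a1 at 6 h the Sox2 IP response minus the Sox2 input response was -1.72 ± 0.70 (limma adjusted p = 0.405; 0.269% of genes called), and none of these passed. Over the 8 comparisons of one response with another, 0 of 80 member tests passed in limma (2.42% of all genes called for Prestin IPs against inputs at 6 h, 0.0485% for Sox2 IPs against inputs at 24 h) and 15 had an unadjusted p under 0.05. The share of all genes under that unadjusted cut is not given here, so the 15 cannot be set against it.

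Between 6 h and 24 h, 9 of the 10 genes fell in inputs, Egr2 being the other one, where 3.48% of genes were called lower and 16.1% in either direction. Nr4a1 fell by 2.42 ± 0.24 (limma adjusted p = 1.59e-05), to 5.67, 7.17, 7.31, 4.04, 6.63 and 7.53 TPM. Egr1 fell by 1.73 ± 0.23, Nr4a2 by 1.52 ± 0.22 and Ier3 by 1.33 ± 0.18 (limma adjusted p from 0.000178 to 0.000366). Klf4 fell by 1.17 ± 0.15, Ier2 by 0.77 ± 0.12 and Klf6 by 0.69 ± 0.09 (limma adjusted p from 0.000127 to 0.000618). Nr4a3, again retained through its 6 h libraries alone, fell by 1.07 ± 0.12 in the fit with no floor (limma adjusted p = 0.000132), in which 9 members were called. Egr3 fell by 1.03 ± 0.28 (limma adjusted p = 0.0227), a call kept in 13 of 17 alternatives. It passed the floor through inputs at 6 h and Sox2 control inputs, with no input at 24 h, which favours a fall. It was among the 9 members called with no floor. Egr2 differed by -0.53 ± 0.25 (limma adjusted p = 0.176). In Sox2 inputs alone, 4 genes passed. Of all genes, 1790 were called higher and 494 lower on TPM, and 1040 higher and 810 lower with median-of-ratios scaling.

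In the IPs 1 gene passed between 24 h and 6 h in each strain. Nr4a1 in Prestin IPs fell by 1.87 ± 0.24, to 15.6, 15.5 and 18.1 TPM (limma adjusted p = 0.0442; 0.0419% of genes called lower, 0.102% in either direction), a call that was lost without any one of the 6 libraries. Nr4a3 differed there by -1.86 ± 0.40 (limma adjusted p = 0.181), Egr1 by -1.41 ± 0.37 (limma adjusted p = 0.291) and Ier3 by -0.65 ± 0.14 (limma adjusted p = 0.188). In Sox2 IPs Egr1 fell by 2.03 ± 0.21 (limma adjusted p = 0.0412; 0.0683% of genes called lower, 0.506% in either direction); the call was lost without 6 h replicate 4 or without any one of the 3 libraries at 24 h. Klf4 differed by -1.48 ± 0.20 (limma adjusted p = 0.0516) and Egr3 by -1.74 ± 0.31 (limma adjusted p = 0.110).

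The 10 genes were richer in IPs than in inputs, as were most genes on the TPM scale, where mitochondrial transcripts took 20.5% to 28.6% of the input TPM and at most 13.7% of an IP's. All 10 were called higher in Prestin IPs over Prestin inputs, where 68.5% of 17363 genes were called higher and 76.1% in either direction, and 9 in Sox2 IPs over Sox2 inputs, where 55.2% of 18560 genes were called higher and 57.9% in either direction. A call in these comparisons is therefore common among all genes. The median gene stood at 0.82 in the Prestin and at 0.65 in the Sox2 comparison, and with median-of-ratios scaling at 0.05 and 0.02. Under that scaling 5649 genes were called higher and 5456 lower in the Prestin comparison, against 11885 and 1333 on TPM, and 3440 higher and 3460 lower in the Sox2 comparison, against 10241 and 505 on TPM.

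Ier2 had the largest value of the 10 in both strains, at 3.59 ± 0.42 in Prestin IPs (limma adjusted p = 1.92e-06), exceeded by 0.852% of genes, and 3.25 ± 0.12 in Sox2 IPs (limma adjusted p = 3.08e-08), exceeded by 0.388%. Without Prestin control homogenate 1 its Prestin value was 4.02 ± 0.08 (limma adjusted p = 1.2e-12). Its IP to input ratio within a homogenate was 13.8 to 20.6 in 8 of the 9 Prestin homogenates, with 1.10 in control homogenate 1, and 6.90 to 13.1 in the 7 Sox2 homogenates. Klf6 stood at 2.17 ± 0.12 in Prestin IPs and 1.92 ± 0.09 in Sox2 IPs, and both genes were still called under median-of-ratios scaling, with Klf6 at 1.10 and 1.02. Ier3 had lower values, with 0.68 ± 0.08 in Prestin IPs (limma adjusted p = 1.24e-06), where Nr4a3 was lower still, and 0.48 ± 0.21 in Sox2 IPs (limma adjusted p = 0.0781). Under median-of-ratios scaling Ier3 turned to -0.39 (limma adjusted p = 0.000254) and -0.43 (limma adjusted p = 0.140), and with the homogenate as a block it was called in Sox2 IPs at 0.48 (limma adjusted p = 0.0039).

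For the other genes the Prestin IP over input values were 1.73 ± 0.18 for Egr1, 1.29 ± 0.15 for Egr2, 1.11 ± 0.32 for Egr3, 1.15 ± 0.11 for Nr4a1, 2.08 ± 0.12 for Nr4a2, 0.58 ± 0.17 for Nr4a3 and 1.51 ± 0.10 for Klf4. In Sox2 IPs over inputs, Egr1 stood at 1.34 ± 0.15, Egr2 at 2.60 ± 0.25, Egr3 at 1.95 ± 0.19, Nr4a1 at 1.24 ± 0.27, Nr4a2 at 1.28 ± 0.20, Nr4a3 at 0.67 ± 0.26 and Klf4 at 1.01 ± 0.14. With median-of-ratios scaling, Egr2, Nr4a1 and Nr4a3 no longer passed in Prestin IPs, and Nr4a1, Nr4a2, Nr4a3 and Klf4 no longer passed in Sox2 IPs, which left 6 members higher and Ier3 lower in the first and 5 higher in the second.

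**Figure D3:**
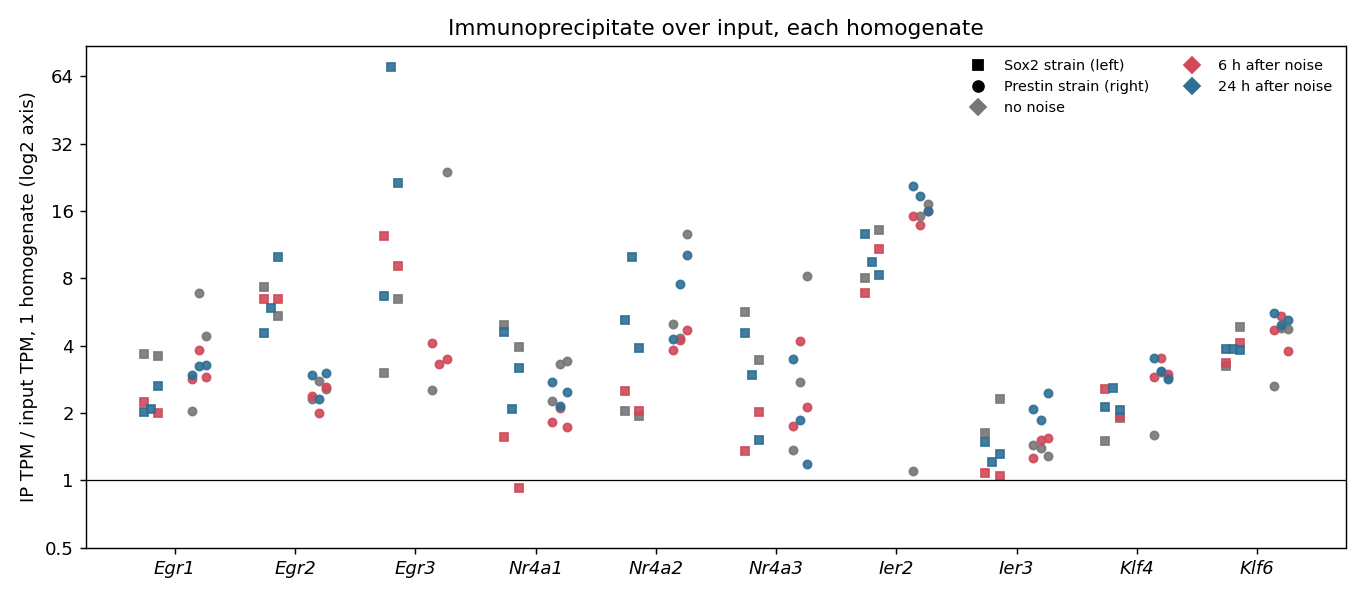
Each point is the TPM of an IP divided by that of the input of the same homogenate, on a log2 axis, with the Sox2 strain as squares at the left and the Prestin strain as circles at the right of each gene; homogenates with a 0 in either library are left out. Egr2 separates the strains (4.55 to 10.0 in Sox2, 2.01 to 3.02 in Prestin), and the low Ier2 circle is control homogenate 1 at 1.10.

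Whether the IP over input values differ between the strains was tested over all 32 libraries as a comparison that was not planned and was chosen with the data in view, where 21.6% of genes were called (1498 higher and 2751 lower in the Sox2 strain on TPM, 1835 and 1477 with median-of-ratios scaling). Egr2 was higher in the Sox2 strain, by 1.31 ± 0.28 (limma adjusted p = 0.00228), with ratios of 4.55 to 10.0 in 7 Sox2 homogenates and 2.01 to 3.02 in 9 Prestin homogenates. Nr4a2 was lower in the Sox2 strain, by -0.80 ± 0.23 (limma adjusted p = 0.0147), although its ratios of 1.94 to 9.99 and 3.83 to 12.6 overlapped. Klf4 differed by -0.50 ± 0.17 (limma adjusted p = 0.0434), a call kept in 5 of 21 alternatives, while those of Egr2 and Nr4a2 were kept in all 21. Without Prestin control homogenate 1, 5 members were called.

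Egr2 levels and glial markers were highest in the same kind of library, and their part in the Egr2 result was not tested. The marker sum of Schwann and satellite glia was 2698 to 7958 TPM in Sox2 IPs and 1216 to 2190 TPM in Prestin IPs. The Sox2 control IP with the lowest Egr2, replicate 4 at 42.7 TPM, had the lowest glial sum of the Sox2 IPs, and 6 h replicate 4, with the highest Egr2 at 200 TPM, had a sum of 7325 TPM. The highest glial sum, 7958 TPM, was in 24 h replicate 3, whose Egr2 was 148 TPM. None of the 8 markers was at 0. Among 11603 genes, the 2 whose group means on the log2 scale followed Egr2 most closely over the 12 groups were Gpr155 (Pearson r = 0.980) and Rnf103 (0.972). Groups share strain, IP and composition, so these correlations describe the 12 groups and carry no test.

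**Figure D4:**
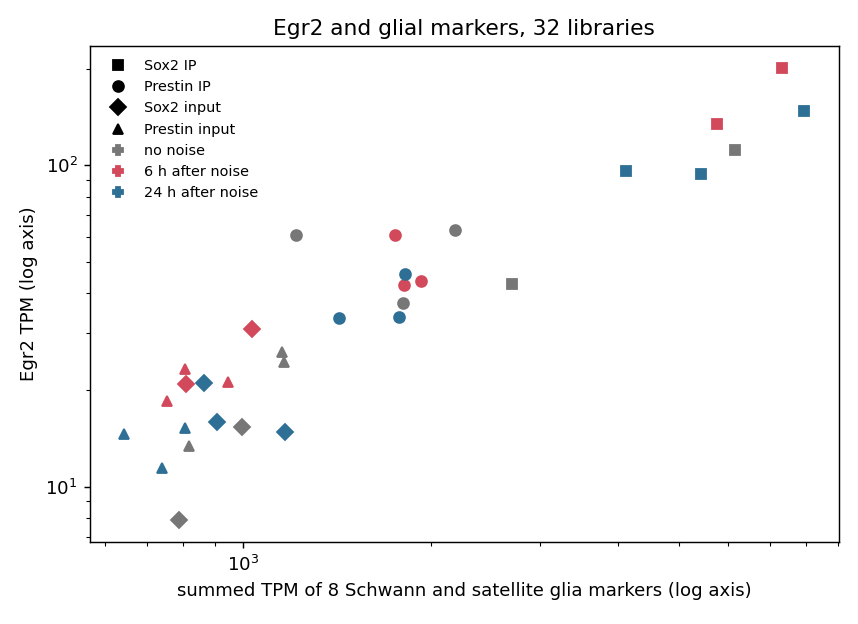
Egr2 TPM is plotted against the summed TPM of 8 Schwann and satellite glia markers, both on log axes, with a point for each of 32 libraries, symbols for strain and kind of library and colours for time. Sox2 IPs lie at the right, from 42.7 to 200 TPM of Egr2, and inputs at the lower left. The lowest Sox2 IP, control replicate 4, lies within the Prestin IP range of 33.5 to 62.7 TPM of Egr2.

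The other members kept different company. The closest genes to Egr1 were Fos (0.988), the AP-1 subunit, Phlda1 (0.972) and Nfil3 (0.961), and those to Nr4a1 were Ccn1 (0.961), Fos (0.960) and Fosb (0.952). Egr3 was closest to Arc (0.947), a synaptic immediate early gene, Tamalin (0.926) and Noct (0.914). Ier3 was closest to Gadd45b (0.957), a stress response gene, Cebpb (0.954) and Gem (0.952), and Klf4 to Sgk1 (0.986), a kinase induced by glucocorticoids, Hbegf (0.974) and Csrnp1 (0.967). Nr4a2 was closest to Pnrc1 (0.972), Mafk (0.962) and Usp53 (0.956), and Nr4a3 to Hexim1 (0.938), Atp2a2 (0.933) and Fosb (0.923). Klf6 was closest to Btg2 (0.994), an antiproliferative early response gene, Trib1 (0.993) and Lpar2 (0.993), and Ier2 to Tmed5 (0.990), Vldlr (0.990) and Tmem30b (0.989).

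Other early genes, from lists chosen with earlier results of these data known, rose with them. Of 32 further immediate early genes, such as those of the AP-1 complex, 31 were tested in inputs. At 6 h 26 were higher (3.83% of all genes were), with a median of 1.30 against -0.09 for all genes. The 3 with the smallest p were Maff, a small Maf factor, at 4.06 ± 0.23, Phlda1 at 1.57 ± 0.09 and Junb, an AP-1 subunit, at 2.50 ± 0.17 (limma adjusted p from 2.38e-07 to 1.06e-06). In Prestin IPs 19 of 32 were higher (0.856% of all genes were), led by Maff at 3.48 ± 0.32, Junb at 2.58 ± 0.26 and Csrnp1 at 1.5 ± 0.16 (limma adjusted p from 0.00507 to 0.00763). In Sox2 IPs 6 of 32 were higher (0.216% of all genes were), led by Atf3, a stress-induced factor, at 3.22 ± 0.28, Junb at 1.85 ± 0.18 and Mafk at 2.06 ± 0.21 (limma adjusted p from 0.0193 to 0.0252). At 24 h in inputs 6 were higher and 1 lower (3.78% of all genes were higher and 4.44% were called in either direction), with Junb at 1.40 ± 0.16 (limma adjusted p = 0.000129).

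Relatives within the same gene families were counted separately, with no test against the other lists. Of 15 such genes 13 were tested in inputs, and 3 were higher at 6 h (3.83% of all genes were): Ier5 at 0.91 ± 0.15, Ier5l at 0.81 ± 0.16 and Klf10, known as a TGF-beta inducible gene, at 0.47 ± 0.14 (limma adjusted p from 0.00191 to 0.0472). The Klf10 call was kept in 6 of 17 alternatives. In Prestin IPs 2 of 13 were higher (0.856% of all genes were), Klf10 at 0.83 ± 0.18 and Ier5l at 1.01 ± 0.23 (limma adjusted p = 0.0414 and 0.0472), and in Sox2 IPs 0 of 13 passed in limma (0.694% of all genes did). The Prestin IP calls were kept in 3 of 11 alternatives for Klf10 and in 2 of 11 for Ier5l. At 24 h in inputs, where 4.44% of all genes were called in either direction, Ier5l was higher by 0.94 ± 0.15 (limma adjusted p = 0.00191) and Klf9, a glucocorticoid-induced factor, lower by -0.31 ± 0.07 (limma adjusted p = 0.0208). Of the 5 partners and corepressors, 2 were higher in inputs at 6 h (3.83% of all genes were), both corepressors of Egr factors: Nab2 at 0.98 ± 0.15 and Nab1 at 0.43 ± 0.12 (limma adjusted p = 0.00095 and 0.0352). The Nab1 call was kept in 9 of 17 alternatives. Of 15 tested kinases and factors that act upstream, 2 passed (8.54% of all genes did): 1 was higher, Crem at 0.56 ± 0.10 (limma adjusted p = 0.00267), the gene of a CRE-binding modulator, and 1 lower, Mapk3, the gene of ERK1, at -0.21 ± 0.06 (limma adjusted p = 0.0400), a call kept in 6 of 17 alternatives; 0 passed in either kind of IP at 6 h.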

How the data were processed

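Each library has 1 table of TPM (transcript abundance scaled by length and library total) per gene, deposited by the authors. The submitters' processing notes list TopHat and GRCm38, and the counter, annotation release and versions are not given. Libraries were directional and prepared as biological replicates, per the labels' protocols; whether a replicate was 1 animal is not stated there.

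Genes with at least 1 TPM in as many libraries as the smallest group (5 for inputs, 3 for Prestin, 2 for Sox2 fits) were tested on log2(TPM + 1). The test was limma's moderated test with a mean-variance trend (limma 3.58.1, R 4.3.3), with strain as a term for inputs. Benjamini-Hochberg adjustment covered all genes tested, at a threshold of 0.05. The fit was tested on simulated data. Members and lists were chosen with earlier results of these data known. All 10 members are named, with at most 3 genes of each other list by smallest p, and the 3 genes of highest Pearson r over 12 group means among genes with a group mean of at least 5 TPM; 1 of these is not reported here. IP and input share a homogenate by design (r of deviations 0.0226 to 0.308 over 16 pairs).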

Additional observations from a re-analysis of the deposited data

Results flagged for a closer look

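Among the members, 3 had IP over input values that differed between the strains by limma's test of the difference, Sox2 minus Prestin. The log2 difference was 1.31 for Egr2, -0.80 for Nr4a2 and -0.50 for Klf4, and 21.6% of all genes were called in this comparison.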

How the results depend on the processing

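Of 107 log2 fold changes printed for single genes, 72 passed the threshold and 26 of these did so under every alternative run. One called value changed sign, Ier3 in Prestin IPs over inputs (-0.39 with median-of-ratios scaling); among uncalled values Ier3 in Sox2 IPs over inputs turned to -0.43 under that scaling, Egr2 in Prestin IPs at 6 h to 0.12, and Egr3 in inputs at 6 h to -0.56 in Sox2 inputs alone. The cause was not tested. Leaving out 1 library gave, at its lowest and highest, -0.35 to 0.022 for Egr2 in Prestin IPs at 6 h, and -0.078 to 0.64 for Egr3 and -0.033 to 1.19 for Nr4a3 in Sox2 IPs at 6 h.

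The number of members called at 6 h was 8 in inputs, 2 in Sox2 inputs alone; 6 in Prestin IPs, 2 to 5 with 1 library left out; and 2 in Sox2 IPs, 0 without the TPM floor and 0 to 2 with 1 library left out. At 24 h it was 1 in inputs, 2 in Prestin inputs alone and 0 in Sox2 inputs alone. Between 24 h and 6 h it was 9 in inputs, 4 in Sox2 inputs alone; 1 in Prestin IPs, 0 with a pseudocount of 0.1, without the floor, with median-of-ratios scaling or with 1 library left out; and 1 in Sox2 IPs, 2 with a pseudocount of 0.1 or rescaled without mitochondrial genes and Malat1, 0 without the floor, and 0 to 1 with 1 library left out. Sox2 IPs over inputs fell to 5 with median-of-ratios scaling. The strain difference of IP over input ranged from 2 to 5 with 1 homogenate left out, and that of the input responses at 6 h from 0 to 1.

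For same-numbered samples of different conditions the r of deviations ran from -0.101 to 0.0875. The IP and input of 1 homogenate, which are known pairs, gave 0.0226 to 0.308. These ranges overlap, so this check cannot tell whether the numbers pair samples. With the replicate number as a block the counts were 2 in Prestin IPs and 0 in Sox2 IPs at 6 h, 2 in inputs at 24 h and 0 in both kinds of IP between 24 h and 6 h. The block by homogenate, which the design gives, changed no call but that of Ier3 in Sox2 IPs. Groups of 2 or 3 libraries and unknown depth limit the values of Egr3 and Nr4a3.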
